A study of Rattus norvegicus with 14 samples.

Results

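The 10 genes followed here belong to the feedback loop that limits ERK signaling, and they were measured in PCCL3 cells. They are the phosphatase genes Dusp1, Dusp4, Dusp5 and Dusp6, the Sprouty genes Spry1, Spry2 and Spry4, the Sprouty-related genes Spred1 and Spred2, and the transcription factor gene Etv5. They were chosen by name, as ERK pathway feedback genes, with earlier results of these data known. All 10 were found among the 16816 gene symbols of the count table. PCCL3 is a rat thyroid cell line grown with thyrotropin, insulin, hydrocortisone and serum, in EV and PPFP cells alike. EV cells carry the empty vector. PPFP cells stably express the human PAX8-PPARG fusion protein with a myc tag, which joins the thyroid transcription factor PAX8 to the nuclear receptor PPARG. Pioglitazone, an agonist of PPARG, was given at 1 μM over the last 16 hours of culture, and DMSO served as its vehicle. Each line was cultured both ways in 3 independent experiments, which gives 4 groups of 3 libraries (EV, EV + pio, PPFP and PPFP + pio). EV and PPFP cells are separate transfected lines, and whether either is 1 clone or a pool is not given in the sources used here. An effect of the fusion protein and another difference between the lines cannot be told apart in this design.

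Growth factor receptors pass their signal through adaptor proteins to Ras, Raf, MEK and ERK, and active ERK switches on genes that turn the pathway back down. Dual specificity phosphatases (DUSPs) remove phosphate from ERK or from the stress kinases p38 and JNK. Sprouty and SPRED proteins act higher up, at the level of the receptors, Ras and Raf. ETV5 is an ETS family transcription factor whose gene is induced by ERK signaling, so that its RNA is often read as an output of the pathway rather than as a brake. In the thyroid this pathway is known for its activation in carcinomas with RET, RAS or BRAF alterations.

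To show the sequence in front of the genes that the results turn on, the 250 bases before the annotated start are given for 5 of them from RefSeq (rat build GRCr8), which is not the build of the count table. They are written 5′ to 3′ on the strand of the gene, in lower case. Capitals mark the letters of a searched motif. Dusp1 lies on the plus strand at chr10:17184603-17184852, Dusp5 on plus at chr1:262543524-262543773, Spry1 on plus at chr2:122485097-122485346, Spry4 on minus at chr18:30702547-30702796 and Etv5 on plus at chr11:92113013-92113262.
Dusp1: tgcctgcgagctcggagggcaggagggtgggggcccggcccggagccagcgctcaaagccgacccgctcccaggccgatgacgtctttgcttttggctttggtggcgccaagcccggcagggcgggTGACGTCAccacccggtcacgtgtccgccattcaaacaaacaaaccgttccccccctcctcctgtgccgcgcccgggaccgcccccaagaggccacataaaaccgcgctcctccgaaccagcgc
Dusp5: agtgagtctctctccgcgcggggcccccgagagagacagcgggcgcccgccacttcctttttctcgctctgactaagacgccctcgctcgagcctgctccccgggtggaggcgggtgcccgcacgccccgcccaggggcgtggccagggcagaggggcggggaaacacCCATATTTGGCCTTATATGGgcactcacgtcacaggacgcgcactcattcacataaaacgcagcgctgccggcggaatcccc
Spry1: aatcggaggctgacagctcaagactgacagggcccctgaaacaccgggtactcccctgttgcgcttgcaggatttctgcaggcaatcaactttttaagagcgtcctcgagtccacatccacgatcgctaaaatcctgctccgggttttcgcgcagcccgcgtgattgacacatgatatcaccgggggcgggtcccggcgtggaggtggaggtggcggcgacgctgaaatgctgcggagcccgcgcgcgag
Spry4: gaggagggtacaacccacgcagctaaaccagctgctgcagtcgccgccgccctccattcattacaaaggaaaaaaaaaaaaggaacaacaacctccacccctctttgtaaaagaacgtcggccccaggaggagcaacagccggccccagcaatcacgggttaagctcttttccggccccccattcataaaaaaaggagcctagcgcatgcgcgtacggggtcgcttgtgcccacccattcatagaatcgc
Etv5: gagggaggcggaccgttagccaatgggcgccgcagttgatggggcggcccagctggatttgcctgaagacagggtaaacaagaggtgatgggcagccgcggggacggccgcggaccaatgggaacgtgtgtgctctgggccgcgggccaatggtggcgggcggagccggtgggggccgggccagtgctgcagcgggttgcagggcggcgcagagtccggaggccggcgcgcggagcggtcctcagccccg

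The motifs were searched on both strands in the 250 bases before the start of the genes with a promoter entry. These were 9 of the 10 genes, with 10 entries, since Spry2 had an entry for each of its annotated starts. Dusp4 had no entry. The cyclic AMP response element (TGACGTCA) was found in the Dusp1 promoter only, between 124 and 117 bases before the start, and 1.59% of 33469 rat promoters hold it. The CArG box, the site of serum response factor, is CC, then 6 bases of A or T, then GG. The Dusp5 promoter holds this pattern in adjacent copies, from 82 to 73 and from 72 to 63 bases before the start, and 1.497% of promoters hold at least 1 copy. The nuclear receptor hexamer AGGTCA was present in 1 of the Spry2 entries and in 14.1% of all promoters. None of the 10 entries held the AP-1 motif (TGANTCA, 6.34% of promoters), the ETS motif (CCGGAAGT, 3.10%) or the DR1 element of PPARG, a direct repeat of that hexamer spaced by 1 base (0.0508%). A match is a description of the letters, and no binding was measured at these positions here.

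The total count per library was between 23724703 and 35240176. Levels are CPM, the usual depth-scaled unit, in which the count of a gene is divided by that total after TMM scaling, which balances libraries of different composition. The 10 genes had between 88 and 6003 counts in every library, so all 10 passed the filter on low counts in each comparison. Levels are compared for 1 gene across groups and not between genes, because the values are not per length. The check of the labels covered the lines and not the drug. Pparg, to which reads of the human fusion transcript may also have been assigned, was at 1.60 ± 0.347 CPM in EV cells (SD, n = 3) and at 54.1 ± 6.82 CPM in PPFP cells (n = 3), or 5.08 higher on the log2 scale (SE 0.19). Pax8 was at 734 ± 56.3 and 694 ± 16.6 CPM. All 8 thyroid markers were detected in every group, among them Tg, the thyroglobulin gene, at 6463 CPM or more. Of the markers of other cell types, Col3a1, Dcn, Lum, Cdh5, Itgam and Calca had no count in any library, and Ptprc had at most 1. Pdgfra and Col1a1, which are on the fibroblast list, were detected at 19.0 to 32.1 CPM and 0.871 to 3.58 CPM. Vwf and Cd68, of the endothelial and leukocyte lists, were at 0.210 to 1.46 and 0.380 to 1.31 CPM. Both were called higher in PPFP cells without drug, by 1.17 (SE 0.38) and 0.86 (SE 0.30) on the log2 scale. With pioglitazone in both lines Cd68 (1.18, SE 0.31) and Pdgfra (0.46, SE 0.12) were called higher in PPFP cells, and Vwf and Col1a1 were not called. The part of these genes in the results was not tested. In bulk RNA, more cells with a transcript and more transcript per cell cannot be told apart.

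**Figure D1:**
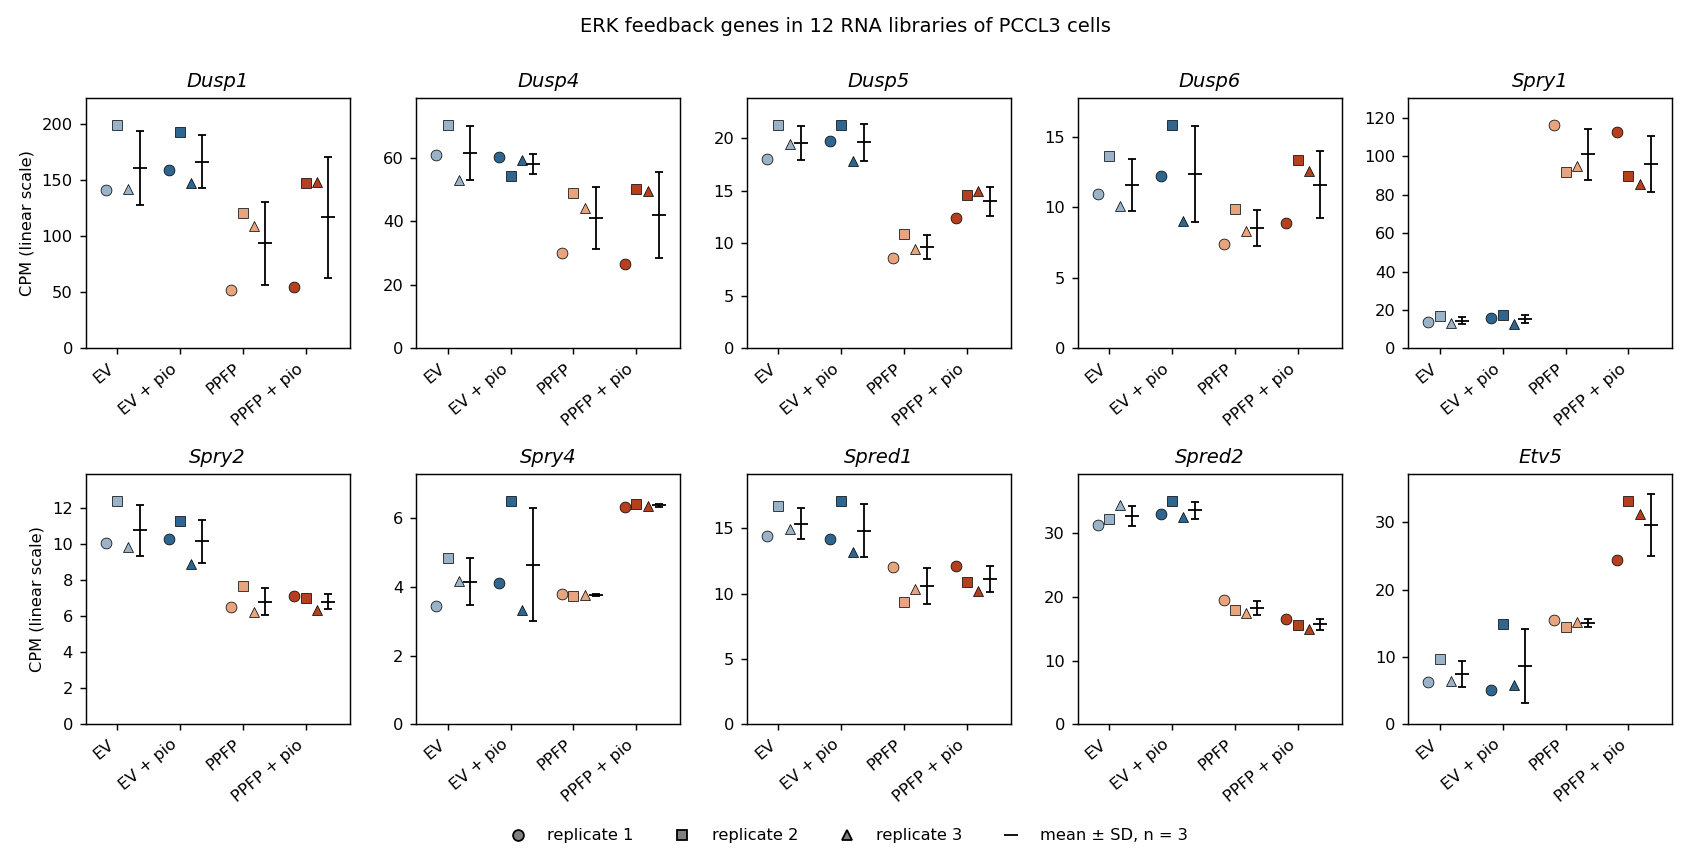
Level of each feedback gene in 12 libraries, in CPM on a linear axis from 0. Points are libraries, shaped by replicate number, and bars give the group mean and SD (n = 3). Spry1 and Etv5 lie higher in PPFP cells, Dusp5 and Spred2 lower, and Etv5 is highest in PPFP cells with pioglitazone, where Spry4 has its highest mean but lies below 1 EV + pio library.

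The first comparison asked how the feedback genes differ between PPFP cells and EV cells cultured without pioglitazone. Of the 10 genes 7 differed, in both directions. Spry1 was 6.97-fold and Etv5 2.04-fold higher in PPFP cells. Dusp5, Spred2, Spry2, Dusp4 and Spred1 were lower, by 2.02-, 1.78-, 1.58-, 1.497- and 1.45-fold. Calls are at an adjusted p under 0.05 in edgeR's quasi-likelihood test over 10264 genes. In that test 22% of all genes were called higher and 23.1% lower, against 2 and 5 of the 10 feedback genes. The 3 genes with a fold change above 2 (Spry1, Etv5 and Dusp5) compare with 14.6% of all genes. The median log2 fold change of the 10 genes was -0.56, and that of all genes tested was 0.00.

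Spry1 encodes a Sprouty protein that restrains receptor tyrosine kinase signaling upstream of ERK. Its level was 13.6, 16.7 and 13.2 CPM in the EV libraries and 116, 91.6 and 94.9 CPM in the PPFP libraries. Every PPFP library lay far above every EV library, and replicate 1 was the highest in PPFP cells. On the log2 scale the fold change was 2.80 (SE 0.14, adjusted p = 9.6e-06), the largest in size among the 10 genes. With pioglitazone the values were 15.7, 17.1 and 12.8 CPM in EV and 113, 89.7 and 85.8 CPM in PPFP cells, and the log2 fold change was 2.68 (SE 0.14, adjusted p = 1.36e-05). The order of the levels was PPFP, PPFP + pio, EV + pio and EV, and the groups of each line overlapped with and without drug.

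Spry2, which is known to bind the adaptor GRB2 and the ubiquitin ligase CBL, went the other way. It was at 10.1, 12.4 and 9.86 CPM in EV and 6.51, 7.69 and 6.25 CPM in PPFP cells, with no overlap. The log2 fold change was -0.66 (SE 0.15, adjusted p = 0.00978), and with pioglitazone it was -0.56 (SE 0.13, adjusted p = 0.00989). Spry4 was at 3.44, 4.83 and 4.16 CPM in EV and 3.79, 3.73 and 3.77 CPM in PPFP cells. The groups overlapped and the difference did not pass the test (log2 fold change -0.14, SE 0.18, adjusted p = 0.554).

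The SPRED proteins block the activation of Raf, and SPRED1 is known to bring the Ras inactivator neurofibromin to the membrane. Spred2 had the least spread between libraries of the genes that were lower. It was at 31.3, 32.1 and 34.3 CPM in EV and 19.5, 17.9 and 17.4 CPM for PPFP, and its log2 fold change was -0.83 (SE 0.093, adjusted p = 0.000335). Spred1 was at 14.4, 16.7 and 15.0 CPM in EV and 12.1, 9.37 and 10.4 CPM in PPFP cells, and fell by 0.53 on the log2 scale (SE 0.13, adjusted p = 0.0138). Neither gene overlapped between the lines. Nf1, the neurofibromin gene, had a log2 fold change of -0.25 (SE 0.16) and was not called.

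Among the phosphatases, DUSP5 acts on ERK in the nucleus and DUSP6 on ERK in the cytoplasm. Dusp5 was at 17.97, 21.2 and 19.4 CPM for EV and 8.61, 10.9 and 9.46 CPM in PPFP cells, with no overlap. Its log2 fold change was -1.02 (SE 0.13, adjusted p = 0.00063). Dusp4, which encodes another nuclear phosphatase, was at 61.0, 70.4 and 53.2 CPM in EV and 30.2, 48.9 and 44.1 CPM in PPFP cells (log2 fold change -0.58, SE 0.19, adjusted p = 0.0375). Dusp6 was at 10.98, 13.6 and 10.1 CPM against 7.39, 9.89 and 8.31 CPM, a log2 fold change of -0.44 (SE 0.17) that was not called (adjusted p = 0.0681). DESeq2, scaling by library size alone and leaving out EV replicate 3 did call Dusp6 (adjusted p = 0.0488, 0.0472 and 0.0439).

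Dusp1 encodes a phosphatase that acts on p38 and JNK as well as ERK and is itself an immediate early gene, switched on within minutes of a stimulus. It was at 141, 199 and 142 CPM in EV and at 51.6, 121 and 109 CPM in PPFP cells. The groups did not overlap, but PPFP replicate 1 lay far below the other PPFP libraries. Its log2 fold change of -0.78 had an SE of 0.30 and was not called (adjusted p = 0.0694), while DESeq2 and edgeR's exact test did call it (adjusted p = 0.0224 and 0.0289). With the replicate number as a block it was -0.85 (SE 0.19, adjusted p = 0.0109), and the differences between same-numbered libraries were -1.45, -0.72 and -0.38 in log2 CPM. Deviations of same-numbered libraries of the lines correlated at -0.22, 0.25 and -0.27. The number is thus not shown to pair EV with PPFP libraries, and this blocked call has that limit. Without overlap between the lines were 9 of the 10 genes, all but Spry4, against 56.5% of all genes tested.

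Etv5 was at 6.21, 9.63 and 6.36 CPM in EV and at 15.6, 14.4 and 15.2 CPM in PPFP cells. The PPFP libraries lay close together and above each EV library, and EV replicate 2 was the highest of its group. The log2 fold change was 1.03 (SE 0.19, adjusted p = 0.00315). Etv4, a close relative of Etv5 on the list of ERK output genes, was not called in the same comparison (0.11, SE 0.17).

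The count of 7 rests in part on single libraries. Without PPFP replicate 3 it was 4 (Dusp5, Spry1, Spred2 and Etv5), and the share of all genes called went from 45.2% to 33.2%. In that fit the adjusted p rose to 0.0757 for Dusp4, 0.0501 for Spry2 and 0.057 for Spred1. The Dusp4 call was also lost without PPFP replicate 1, EV replicate 1 or EV replicate 2 (adjusted p = 0.0517, 0.0906 and 0.11) and in a fit on all 12 libraries (0.058), and the Spred1 call without PPFP replicate 2 (0.0539).

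**Figure D2:**
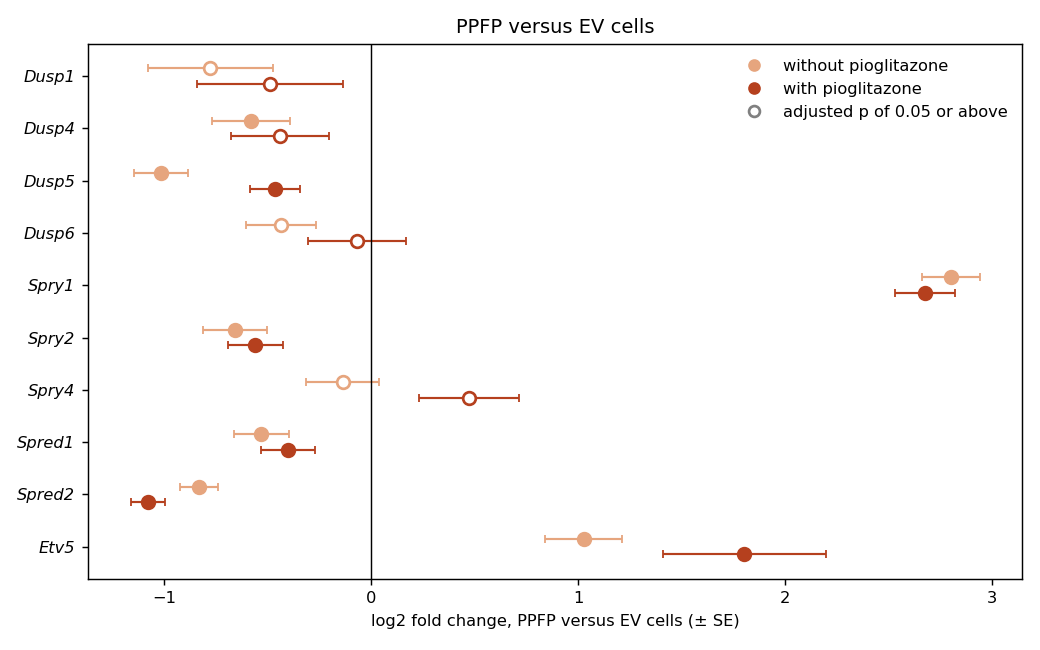
Log2 fold change of PPFP versus EV cells for each feedback gene, without and with pioglitazone; bars are ± 1 SE from edgeR's fit on 6 libraries, and open points have an adjusted p of 0.05 or above. Spry1 keeps a log2 fold change of 2.80 and 2.68, and Etv5 goes from 1.03 to 1.80.

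The libraries labelled replicate 1 stood apart in PPFP cells. All 13 immediate early genes that passed the filter had their lowest level in replicate 1 both in PPFP and in PPFP + pio, as did 4 of the 10 feedback genes (Dusp1, Dusp4, Dusp5 and Dusp6). Over all 10482 genes this held for 35.4%, so the 4 of 10 is no result about the feedback genes. Spry2 and Spred2 were lowest in replicate 3 of both PPFP groups, as were 9.18% of all genes. Egr1, an immediate early transcription factor gene, was at 0.589, 6.72 and 3.98 CPM in PPFP cells and 1.06, 5.82 and 5.54 CPM with pioglitazone. Fos was at 19.3, 75.0 and 53.5 CPM, and Junb at 40.9, 88.0 and 72.1 CPM, in the PPFP libraries. In EV cells the lowest library for Fos and Junb was replicate 3, at 15.3 and 86.9 CPM. Without PPFP replicate 1 the log2 fold change of Dusp1 between the lines was -0.46 and that of Dusp4 -0.38. In that fit 6 of the 10 genes were called, against 43.5% of all genes. The part of the immediate early genes in these results was not tested.

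**Figure D3:**
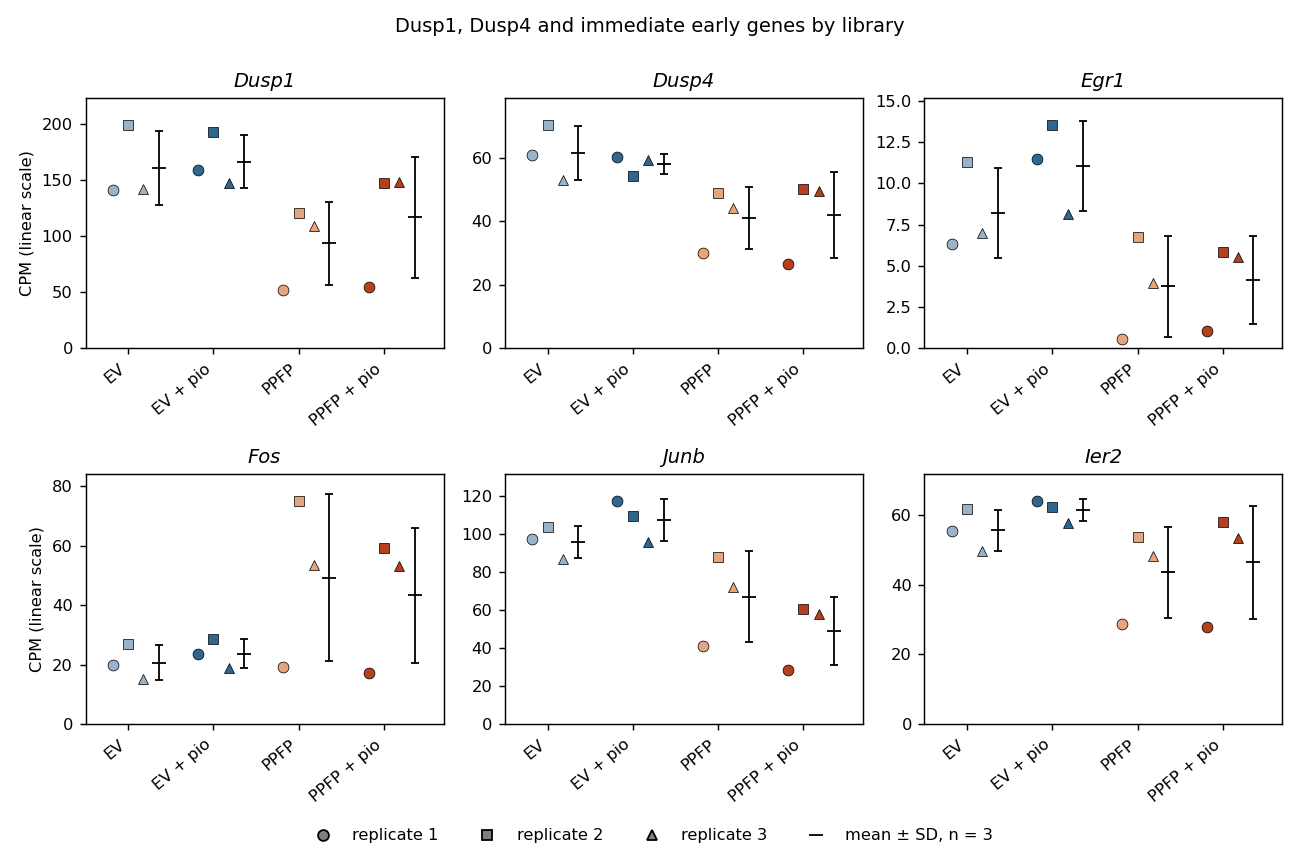
Dusp1 and Dusp4 beside the immediate early genes Egr1, Fos, Junb and Ier2, in CPM by library; points are libraries, shaped by replicate number, with the group mean and SD (n = 3). Replicate 1 is the lowest library of each PPFP group in all 6 panels, at 51.6 and 54.8 CPM for Dusp1.

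With pioglitazone in both lines, 6 of the 10 genes differed between PPFP and EV cells. Spry1 and Etv5 were higher, and Dusp5, Spry2, Spred1 and Spred2 were lower, in a test in which 26.3% of 10291 genes were called higher and 26.4% lower. This comparison has no library in common with the one without drug, but it is of the same lines. Same-numbered libraries within a line deviated together, so the comparisons are not independent. Spry1, Etv5 and Spred2 had a fold change above 2, as had 19.7% of all genes, and 7 of the 10 genes did not overlap between the lines, against 62.9%.

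Etv5 was at 5.10, 14.9 and 5.87 CPM in EV + pio and at 24.4, 33.2 and 31.1 CPM in PPFP + pio. EV + pio replicate 2 lay well above the other EV libraries, and still below every PPFP + pio library. The log2 fold change was 1.80 (SE 0.39, adjusted p = 0.00695), and without that EV + pio library it was 2.44 (adjusted p = 0.000174). Spred2 was at 33.0, 35.0 and 32.6 CPM against 16.5, 15.6 and 14.9 CPM, with a log2 fold change of -1.08 (SE 0.083, adjusted p = 5.56e-05).

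Dusp5 was at 19.7, 21.2 and 17.8 CPM in EV + pio and 12.4, 14.6 and 15.0 CPM in PPFP + pio. The log2 fold change was -0.47 (SE 0.12, adjusted p = 0.0143), against -1.02 without drug. Spred1 was at 14.2, 17.1 and 13.2 CPM against 12.2, 10.9 and 10.2 CPM (log2 fold change -0.40, SE 0.13, adjusted p = 0.0364). The Spred1 call was lost without PPFP + pio replicate 2 or 3 or EV + pio replicate 1 or 2, with an adjusted p of up to 0.113. Dusp1, Dusp4, Dusp6 and Spry4 were not called, with log2 fold changes of -0.49, -0.44, -0.07 and 0.47. Leaving out single libraries moved Dusp1 to between -0.73 and -0.14 and Dusp4 to between -0.62 and -0.19, in both cases nearest 0 without PPFP + pio replicate 1, and neither was called in these fits. Dusp6 was 0.10 without that library and 0.14 without EV + pio replicate 2, again uncalled. Spry4 was at 4.12, 6.49 and 3.32 CPM in EV + pio, and without the high replicate 2 of that group its log2 fold change was 0.78 (adjusted p = 0.00844), while without replicate 3 it was 0.26 (adjusted p = 0.33).

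The response to pioglitazone was then compared within each line. In PPFP cells Etv5 rose 1.98-fold, Spry4 1.70-fold and Dusp5 1.46-fold, and no feedback gene was called lower. Over 10064 genes 7.63% were called higher and 7.13% lower. The median log2 fold change of the 10 genes was 0.20, and that of all genes tested was 0.01.

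Spry4 was at 3.79, 3.73 and 3.77 CPM in PPFP cells and at 6.32, 6.41 and 6.34 CPM with pioglitazone. The groups lay far apart, and the SD within them (0.0289 and 0.0481 CPM) was below the counting error of 1 library (0.383 and 0.479 CPM), so the spread between these libraries understates the error for this gene. Spry4 thus rose by 0.77 on the log2 scale (SE 0.098, adjusted p = 0.00435). Etv5 went from 15.6, 14.4 and 15.2 CPM to 24.4, 33.2 and 31.1 CPM (log2 fold change 0.99, SE 0.13, adjusted p = 0.00492). Dusp5 went from 8.61, 10.9 and 9.46 CPM to 12.4, 14.6 and 15.0 CPM (log2 fold change 0.55, SE 0.13, adjusted p = 0.036). The Dusp5 levels with pioglitazone lay between those of PPFP cells without drug and those of EV cells, and did not overlap with either.

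The Dusp5 call was lost when any library but PPFP + pio replicate 1 was left out (adjusted p between 0.0514 and 0.139) and with scaling by library size alone (0.0715). The Etv5 call was lost when the spread was estimated on all 12 libraries (adjusted p = 0.0915). Of the 10 genes 4 did not overlap between PPFP cells with and without drug (Dusp5, Spry4, Spred2 and Etv5), against 34.4% of all genes.

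Libraries of the same number within a line deviated together, so the response was also read within pairs. In PPFP cells this pairing was less clear for replicates 2 and 3. Replicate 3 with drug correlated more with replicate 2 without drug (0.43) than with its own number (0.29). With the replicate number as a block, 6 of the 10 genes were called in PPFP cells. Dusp1 (log2 fold change 0.30, SE 0.051, adjusted p = 2.69e-05) and Dusp6 (0.45, SE 0.088, adjusted p = 0.000149) joined the genes that rose, and Spred2 fell by 0.21 (SE 0.067, adjusted p = 0.0106). In the same blocked fit 27.7% of all genes were called higher and 23.9% lower, so a call is common there. Within pairs 1 to 3, Dusp1 differed by 0.09, 0.29 and 0.45, Dusp6 by 0.27, 0.44 and 0.59 and Spred2 by -0.24, -0.20 and -0.23 in log2 CPM. The SEs of the blocked fit draw on a spread shared among genes. For Dusp1 the SE of 0.051 is therefore not a measure of the spread between its pairs. Without the block none of these 3 genes was called (adjusted p = 0.696, 0.18 and 0.133).

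Dusp4, Spry1, Spry2 and Spred1 were not called in PPFP cells by either fit, with log2 fold changes of 0.05, -0.06, 0.01 and 0.07. A blocked fit scaled by library size alone, added after seeing the data, called Spry1 lower (-0.11, adjusted p = 0.0252). Of the Sprouty genes, Spry1 differed between the lines and was not called for pioglitazone with TMM scaling, and in the fits on all libraries of the groups compared Spry4 was called for pioglitazone in PPFP cells and not between the lines.

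In EV cells no gene was called for pioglitazone at an adjusted p under 0.05 (0% of 10146 genes), and 16 genes had an unadjusted p under 0.05 in edgeR's test, none of them a feedback gene. Uniform p-values would put 5% of genes there, so absence from these 16 tells nothing about a gene. The replicate block gave 605 genes at an unadjusted p under 0.05 and 1 called, and again none of these was a feedback gene. The log2 fold changes of the 10 genes lay between -0.09 (Spry2) and 0.21 (Etv5), and DESeq2 and edgeR's exact test called none of them. With the replicate block the smallest adjusted p among the 10 was 0.857 (Dusp1). For Etv5 the SE in EV cells was 0.43, and the pairs differed by -0.29, 0.63 and -0.12, with 1 pair apart from the others in sign.

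**Figure D4:**
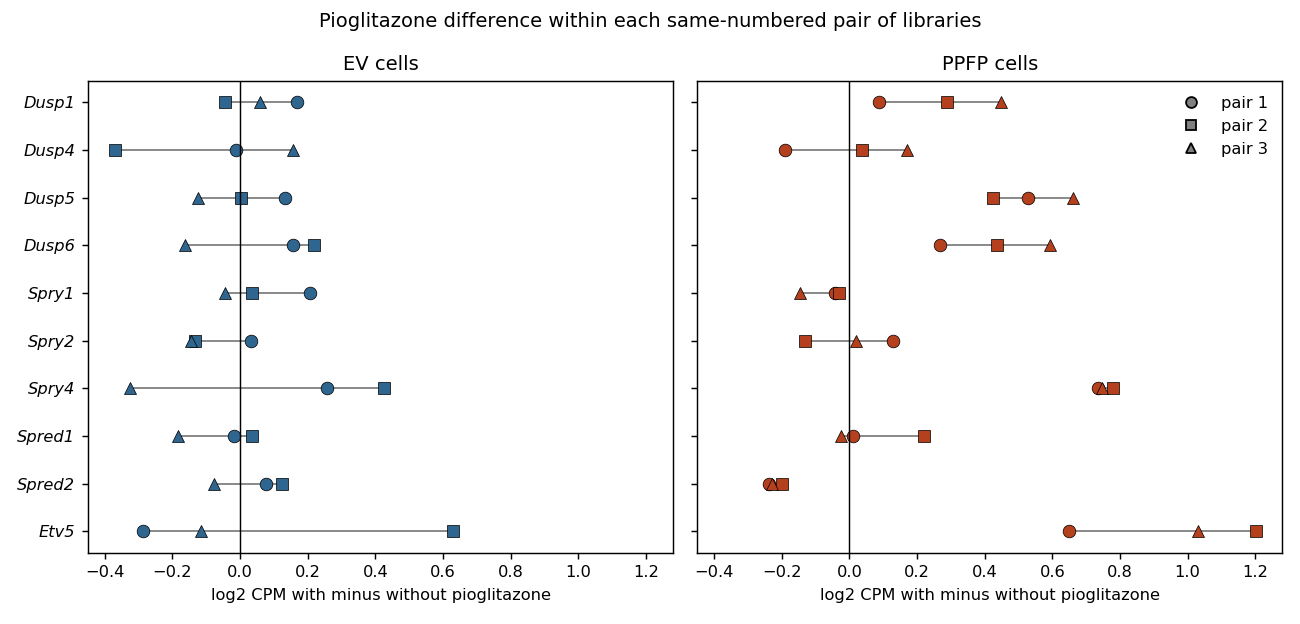
Log2 CPM with minus without pioglitazone for each feedback gene, within same-numbered pairs of EV libraries and of PPFP libraries; points are pairs and lines span their range. In PPFP cells the 3 Spry4 pairs lie between 0.74 and 0.78 and the Etv5 pairs between 0.65 and 1.202, while in EV cells the pairs of each of these genes lie on both sides of 0.

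Whether the response differed between the lines was tested as the interaction over all 12 libraries. No feedback gene was called by edgeR's quasi-likelihood test, in which 2.64% of 10482 genes were. At an unadjusted p under 0.05 there were 2 of the 10, against 13.3% of all genes, and DESeq2 called 1 (Dusp5), and 5.73% of all genes. The estimates were largest for Etv5 (0.75, SE 0.48, adjusted p = 0.609), Spry4 (0.59, SE 0.31, adjusted p = 0.471) and Dusp5 (0.53, SE 0.17, adjusted p = 0.147). Without EV + pio replicate 2, the library in which Etv5 was high, the Etv5 estimate was 1.41 (adjusted p = 0.0215), and without EV + pio replicate 1 it was 0.48 (adjusted p = 0.882). With the replicate number within each line as a block, 6 of the 10 genes were called, against 34.3% of all genes. Dusp5, Etv5, Spry4, Dusp6 and Dusp1 responded more in PPFP cells, and Spred2, which fell by 0.21 in PPFP cells in the blocked fit, was at 0.040 and not called in EV cells.

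The other genes of the route from receptor to ERK were counted by lists. Their counts are from the fits without a block and stand beside 22% of all genes called higher and 23.1% lower between the lines, and 7.63% higher and 7.13% lower for pioglitazone in PPFP cells. A list with a share near or below these, such as the Ras and Raf list with 8 of 17 called between the lines or the immediate early genes with 4 of 12, is no result about the list. Genes given below without a value were named after their values were seen, to account for a small count. Of 12 receptor genes tested between PPFP and EV cells without pioglitazone, 2 were higher (Met and Ddr1), 7 lower and 3 not called. Ret, the receptor of the GDNF family ligands, was at 6.92 ± 0.784 CPM in EV and only 0.640 ± 0.116 CPM when PPFP was expressed (n = 3), with a log2 fold change of -3.43 (SE 0.21, adjusted p = 2.17e-05). Fgfr3 and Fgfr2, receptors of fibroblast growth factors, fell by 1.40 (SE 0.097) and 1.16 (SE 0.11) on the log2 scale. Fgfr2 was at 475 ± 59.5 CPM in EV and 213 ± 7.47 CPM in PPFP cells. With pioglitazone 2 receptors fell further in PPFP cells, Fgfr2 by 0.60 (SE 0.049) and Fgfr1 by 0.53 (SE 0.081), while Egfr rose.

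Of 14 adaptor genes 6 were higher, 3 lower (Sos1, Irs1 and Irs2) and 5 not called. Shc1, which links receptors to GRB2 and SOS, rose from 256 ± 48.2 CPM for EV to 745 ± 45.2 CPM for PPFP (log2 fold change 1.54, SE 0.14). The insulin receptor substrate genes Irs2 and Irs1 fell by 1.11 (SE 0.13) and 1.74 (SE 0.33), Irs1 from a low level of 0.873 CPM. None of the 13 adaptors tested was called for pioglitazone in PPFP cells without the block.

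Of 17 genes on the Ras and Raf list, 5 were higher (Rap1a, Rap1b, Rras2, Mras and Rasa2), 3 lower (Rras, Shoc2 and Dab2ip) and 9 not called. Rap1b, a Ras-related GTPase, was the only one above a fold change of 2 (log2 fold change 1.52, SE 0.083, adjusted p = 1.29e-05). Rap1a and Rras2 rose with pioglitazone in PPFP cells by 0.53 (SE 0.048) and 0.51 (SE 0.11). Of 9 MEK and ERK kinase genes and partners, 4 were higher, Map2k1, Map2k2 and Pea15 among them, none lower and 5 not called. Pea15, whose protein holds ERK in the cytoplasm, had a log2 fold change of 1.54 (SE 0.35), at 1.05 CPM in PPFP cells. In the pioglitazone response Map2k1, the MEK1 gene, rose by 0.38 (SE 0.065) and Mapk3, the ERK1 gene, fell by 0.37 (SE 0.055).

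Of 11 other phosphatase genes of the DUSP family, 2 were higher (Dusp16 and Dusp22), 4 lower (Dusp2, Dusp7, Dusp8 and Dusp18) and 5 not called, with a median log2 fold change of -0.26. Dusp22, an atypical DUSP, was at 18.9 ± 1.56 CPM in EV and 40.3 ± 2.001 CPM in PPFP cells, and it rose by a further 0.46 (SE 0.067, adjusted p = 0.00671) with pioglitazone. Dusp8, a phosphatase of the stress kinases, fell by 1.60 (SE 0.46) between the lines. Dusp7, which like Dusp6 encodes a cytoplasmic ERK phosphatase, fell by 0.38 (SE 0.073) with pioglitazone. Spred3, the only other Sprouty relative tested, was not called in any comparison without the block, and for pioglitazone in PPFP cells the block gave -0.51 (SE 0.12, adjusted p = 0.00101).

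Of 10 other ERK output genes 2 were higher (Myc and Ier3), 5 lower (Phlda1, Ccnd1, Epha2, Epha4 and Fosl1) and 3 not called between the lines without drug. Myc was higher (log2 fold change 1.54, SE 0.32), and Epha4 (-3.12, SE 0.38) and Fosl1 (-1.88, SE 0.19) were lower. Fosl1, an AP-1 subunit gene, was at 2.97 ± 0.0384 CPM in EV and 0.802 ± 0.0162 CPM in PPFP cells. These levels rest on 88 to 89 and on 19 to 22 counts per library, so the SDs understate the error. With pioglitazone in PPFP cells 2 of 11 rose and 1, Fosl1, fell, to 9 to 14 counts per library. Etv4, of the same ETS subfamily as Etv5, went from 8.56 ± 0.642 to 18.3 ± 1.41 CPM (log2 fold change 1.10, SE 0.10, adjusted p = 0.0014). Ccnd1, the cyclin D1 gene, rose by 0.33 (SE 0.041). Of 12 immediate early genes 1 was higher (Btg2) and 3 were lower (Jun, Klf2 and Atf3) between the lines, Atf3 with a log2 fold change of -2.05 (SE 0.53), and none was called for pioglitazone in PPFP cells without the block. Of 7 glucocorticoid target genes, counted because the medium held hydrocortisone and Dusp1 is itself such a target, 2 were higher (Sgk1 and Zbtb16) and 2 lower (Per1 and Klf9) in PPFP cells without drug. Sgk1 rose by 1.79 (SE 0.15) and Klf9 fell by 1.26 (SE 0.15) on the log2 scale.

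With the replicate block, in which 27.7% of all genes were called higher and 23.9% lower for pioglitazone in PPFP cells, the list counts grew. It called 3 of 12 receptors higher and 6 lower, 4 of 13 adaptors each way, 4 of 17 Ras and Raf genes higher and 2 lower, and 2 of 9 MEK and ERK kinase genes and partners higher and 1 lower. Of 11 other phosphatase genes 4 were called higher and 2 lower, and of 11 ERK output genes likewise 4 and 2. Among the 12 immediate early genes 1 was higher (Atf3) and 5 were lower (Fos, Jun, Junb, Btg2 and Klf2), Junb by 0.44 (SE 0.051, adjusted p = 9.31e-08). All 7 glucocorticoid targets were called, 3 higher and 4 lower, and all 8 thyroid markers were called lower, against 5 without the block. These blocked counts were added after seeing the data.

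**Figure D5:**
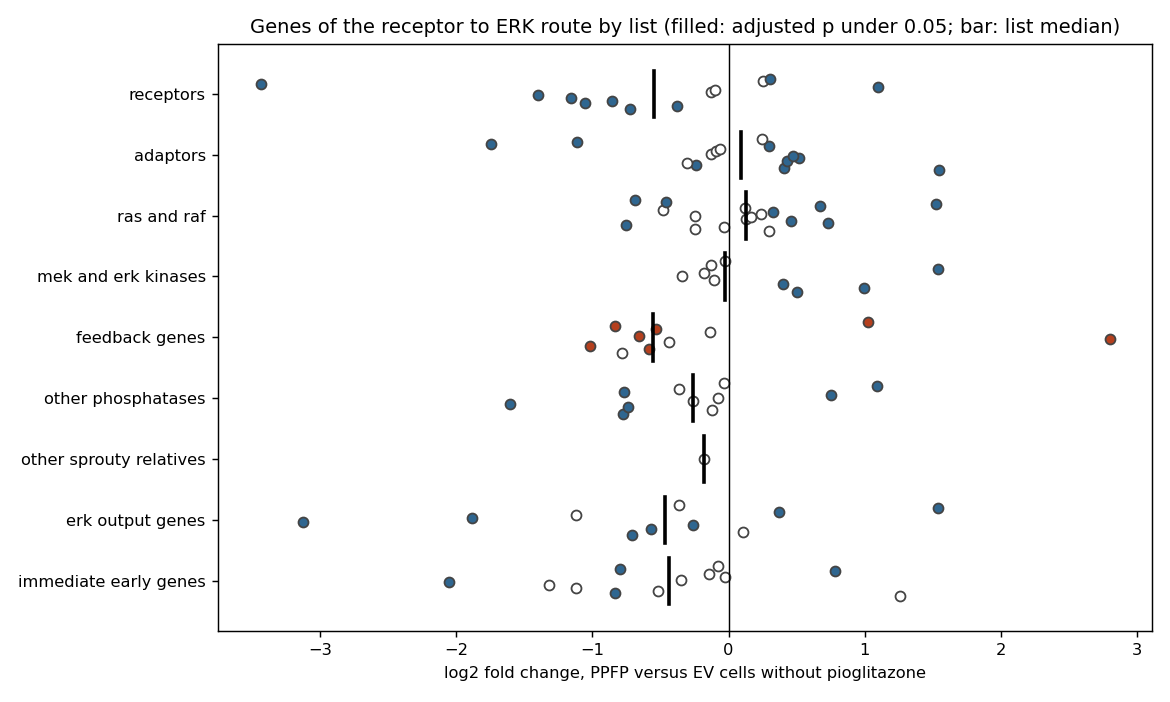
Log2 fold change of PPFP versus EV cells without pioglitazone for each tested gene of the route from receptor to ERK, by list; filled points have an adjusted p under 0.05 and the bar is the median of the list. The feedback genes run from -1.02 for Dusp5 to 2.80 for Spry1, with a median of -0.56, and the receptors have a median of -0.55.

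The genes whose pattern over the 12 libraries was most like that of the 2 feedback genes with the largest change were found by the smallest root mean square difference of centered log2 CPM, over 10482 genes. For Spry1 these were Fxyd5 (0.207), Gramd1b (0.211) and Tm4sf1 (0.224), while Spry1 itself ranged over 3.18 in log2 CPM. Gramd1b was at 13.4 ± 1.78 CPM in EV and 82.6 ± 3.08 CPM in PPFP cells. For Etv5 they were P2rx3 (0.303), Bcl6 (0.309) and Lrp6 (0.317), against an Etv5 range of 2.70. Lrp6, a coreceptor of Wnt ligands, was at 79.0 ± 12.1 CPM in EV cells, 151 ± 12.8 CPM in PPFP cells and a mean of 351 CPM in PPFP + pio. The likeness is that of 12 libraries in 4 groups and describes these libraries only.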

How the data were processed

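The authors sequenced RNA of 12 libraries as 50 nt paired reads. The submitters' processing notes name TopHat2 2.0.11, HTSeq 0.6.1p1 and the build rn4, and the deposited table holds the resulting raw counts per gene symbol. The analysis used edgeR 4.0.16 in R 4.3.3. After filterByExpr and TMM scaling, edgeR's quasi-likelihood test was run over the whole table on the 6 libraries compared (12 for the interaction), with Benjamini-Hochberg adjustment. Standard errors are the log2 fold change divided by the root of F, and differences within pairs used log2 CPM with a prior count of 0.5. DESeq2 1.42.0, edgeR's exact test, other scalings and filters, a replicate block and leaving out each library were alternatives. Scripts were tested on simulated data.

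The members and lists were chosen with earlier results of these data known. All 10 genes were named, with up to 3 genes per list for PPFP versus EV cells (adjusted p under 0.05, fold above 2) and up to 2 for pioglitazone in PPFP cells, by smallest adjusted p, Pparg, Pax8 and the most alike genes of the 2 most changed members. The study ran 3 independent experiments, and the sources used here do not say that a replicate number marks an experiment. Deviations of same-numbered libraries from the group means correlated at 0.29 to 0.63 in PPFP and 0.42 to 0.68 in EV cells, which was taken as pairing within a line. Libraries of different number correlated at -0.53 to 0.43 in PPFP and -0.59 to -0.03 in EV cells. The ranges thus overlap in PPFP cells, where only replicate 1 was clearly paired. Between lines the range for same-numbered libraries was -0.30 to 0.25. Between the lines without drug, replicates had a biological coefficient of variation of 0.141. Peaks were not used here, since gene positions in rn4 were not at hand.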

Additional observations from a re-analysis of the deposited data

Results flagged for a closer look

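For 6 of the 10 feedback genes the response to pioglitazone differed between PPFP and EV cells by a test of the difference itself, in edgeR's fit with the replicate number within each line as a block. The estimates, PPFP minus EV on the log2 scale, were 0.53 for Dusp5 (SE 0.10, adjusted p = 0.00112), 0.79 for Etv5 (SE 0.20, adjusted p = 0.0075) and -0.26 for Spred2 (SE 0.077, adjusted p = 0.0173). They were 0.60 for Spry4 (SE 0.19, adjusted p = 0.0235), 0.23 for Dusp1 (SE 0.078, adjusted p = 0.0351) and 0.35 for Dusp6 (SE 0.13, adjusted p = 0.0448). The same fit called 34.3% of all genes, and its SEs draw on a spread shared among genes. Without the block, edgeR's quasi-likelihood test on all 12 libraries called none of the 6, with adjusted p between 0.147 (Dusp5) and 0.929 (Dusp1). Other fits without the block did call Dusp5 (DESeq2) and Etv5 (edgeR without EV + pio replicate 2).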

How the results depend on the processing

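Without drug, 4 to 8 of the 10 genes were called between the lines when single libraries were left out (33.2% to 46.8% of all genes), and 9 with DESeq2 (48.3%). The replicate block gave 8, with Dusp1 added (39.5%), and with pioglitazone 5, without Spred1 (44.2%). Between the lines the deviations of same-numbered libraries correlated negatively for replicates 1 and 3, and positively for replicate 2 alone, both without and with drug. For pioglitazone in PPFP cells the replicate block gave 6 (51.6%). Some blocked alternatives were chosen after seeing the data: 7 were called with library size alone, and 6, 6 and 5 without pair 1, 2 or 3 (41.3% to 50.9% of all genes). For the interaction the block gave 6 (34.3% of all genes), DESeq2 1 (5.73%), and leaving out single libraries 0 to 1 (1.17% to 2.92%).

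Each value that changed sign was uncalled without the block and under the alternative that turned it. The Dusp1 difference in response, called with the block, and Spry1 in PPFP cells, called with the block and library size alone, are among these. For pioglitazone in PPFP cells, library size alone gave -0.040 for Spry2, and with the block too, -0.017 for Dusp4 and -0.035 for Spry2. The block gave -0.066 for Spry2 without pair 1, -0.013 for Spred1 without pair 2 and -0.055 for Dusp4 without pair 3. Dusp5 in EV cells was -0.0027 with RLE and -0.0024 with DESeq2. With libraries left out, values in PPFP cells ran from -0.046 to 0.090 for Spry2, -0.024 to 0.16 for Spred1, -0.15 to 0.29 for Dusp4 and -0.20 to 0.036 for Spry1. In EV cells they ran from -0.059 to 0.056 for Dusp5, -0.067 to 0.22 for Dusp1, -0.12 to 0.27 for Dusp6, -0.024 to 0.17 for Spry1, -0.15 to 0.34 for Spry4, -0.43 to 0.48 for Etv5, -0.16 to 0.014 for Spred1, -0.17 to 0.016 for Dusp4 and -0.16 to 0.020 for Spry2. For the interaction they ran from -0.030 to 0.18 for Spry2, -0.023 to 0.61 for Dusp1 and -0.058 to 0.37 for Dusp4, and between the lines with drug from -0.27 to 0.14 for Dusp6. The cause was not tested. Peaks near the genes were not run.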
